A study of Homo sapiens with 6 samples.

Results

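The interferon and double-stranded RNA response was followed through 43 genes in SK-N-AS, an established human neuroblastoma cell line. The genes encode RNA sensors, factors of the IRF and STAT families and products of interferon-stimulated genes. They were chosen by name as a response that a transfected small interfering RNA (siRNA) could trigger as a side effect, and the rule uses no measured value. All 43 were found among the 58735 Ensembl genes listed for each library, and *RIGI* is the gene formerly called DDX58.

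RNA sequencing (RNA-seq) had been performed on cells transfected with siPrp19, an siRNA against Prp19, or with the control siRNA NC. The gene *PRPF19* encodes Prp19, a core factor in the splicing of pre-mRNA. The labels give 72 h of transfection for all 6 libraries, while a shorter time stands in the study's methods. All libraries came from the same cell line grown in MEM/F12 with fetal bovine serum, and every library had received an siRNA. A reaction common to both siRNAs therefore lies outside these comparisons, and no untransfected cells were analysed here. Effects of the siPrp19 molecule itself and of the loss of Prp19 cannot be told apart.

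Labels and deposited columns disagreed on the group of some libraries. The value columns were named NCa, NCb, NCc, siPrp19a, siPrp19b and siPrp19c, and these names are used below. NCb is recorded under a sample labelled siPrp19, and siPrp19b under a sample labelled NC. Each result was therefore computed in 3 comparisons. The first set the 3 siPrp19 columns against the 3 NC columns. The second used only the 4 libraries for which both sources give one group (NCa and NCc against siPrp19a and siPrp19c), and the third used all 6 libraries as labelled. Unless stated otherwise, values below are from the comparison by column name. The labels do not say whether the libraries of a group came from separate cultures, and p-values measure only the spread between these libraries. NCa and NCb, and siPrp19b and siPrp19c, were close to counting noise but above it (chi-square per degree of freedom 1.75 and 2.85). All other pairs were at 21.5 or more, also within a group. If the libraries of a close pair are not independent, the SEs and intervals are too narrow and the adjusted p-values too small. This was not tested.

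Double-stranded RNA in the cytoplasm is a sign of viral infection. The sensors RIG-I and MDA5 bind it and signal through the mitochondrial adaptor MAVS, and the endosomal receptor TLR3 signals through a separate adaptor. Both routes activate the transcription factors IRF3 and IRF7, which turn on interferon genes. Secreted interferon then acts through its receptors on a complex that holds STAT2 and IRF9, and this complex binds the interferon-stimulated response element (ISRE) in the promoters of interferon-stimulated genes. The products of these genes bind viral RNA, degrade RNA, halt translation or block the entry and budding of viruses.

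The ISRE is the sequence through which many of the 43 genes are switched on, and the following stretches show it in the promoters of 8 genes with different roles. The window was 250 bases before to 50 bases after the RefSeq gene start on GRCh38.p14. The element was searched as GAAANNGAAA on both strands, and the reverse strand reads TTTCNNTTTC. Capitals mark every base of a match, so that overlapping matches form a longer run. The stretch of *ISG15* lies at chr1:1013380-1013409 on the plus strand and that of *IFIT3* at chr10:89327865-89327894 on the plus strand. *RSAD2* has its stretch at chr2:6877622-6877651 (plus) and *PARP14* at chr3:122680800-122680829 (plus). The stretches of *IFIH1* (chr2:162318686-162318715), *BST2* (chr19:17405735-17405764), *DDX60* (chr4:168318786-168318815) and *IFI6* (chr1:27672266-27672295) are on the minus strand. Each is written 5′ to 3′ on the strand of its gene.
ISG15: tcggGAAAGGGAAACCGAAActgaagccaa
IFIT3: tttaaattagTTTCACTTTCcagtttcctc
RSAD2: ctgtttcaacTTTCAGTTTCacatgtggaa
PARP14: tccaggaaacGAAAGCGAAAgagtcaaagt
IFIH1: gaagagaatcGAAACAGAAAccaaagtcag
BST2: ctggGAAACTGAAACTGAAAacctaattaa
DDX60: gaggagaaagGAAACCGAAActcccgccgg
IFI6: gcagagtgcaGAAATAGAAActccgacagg

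A RefSeq window was matched for 35 of the 43 genes. The element was in the window of 23 of these 35 genes (65.7%) and in that of 4.38% of all 27305 genes with a window (3.57% of 35116 windows). The gamma-activated site, a second interferon-responsive element searched as TTCNNNGAA, was in the window of 11 of the 35 genes (31.4%) and of 9.38% of all genes (7.66% of windows). These letter matches are a description of the sequences and not evidence of binding in these cells.

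The deposited unit was FPKM (fragments per kilobase of exon, normalised for library depth), so levels can be compared between genes per length. Between 14887132 and 19977811 reads per library were recovered from the values. Mitochondrial genes took 8.29% of the reads in siPrp19a and 5.15% to 5.49% in the 5 other libraries. The target *PRPF19* was at 83.0, 83.1 and 93.0 FPKM in NCa, NCb and NCc, and at 19.6, 19.1 and 18.5 FPKM in siPrp19a, siPrp19b and siPrp19c. Its level thus followed the column names and went against the sample labels of NCb and siPrp19b. Its log2 fold change was -2.12 ± 0.07 (SE; adjusted p = 0.000215 by limma) by column name, and it was -0.74 ± 0.73 (adjusted p = 1.00 by limma) as labelled. Of 7 markers of sympathoadrenal neuroblasts, the lineage of neuroblastoma, 6 passed the expression filter, among them *HAND2* at 117 to 170 FPKM, while *TH*, the rate-limiting enzyme of catecholamine synthesis, was at 0.312 to 0.662 FPKM. Of 6 leukocyte markers, *PTPRC* was at 16.9 to 30.7 FPKM, *CD3E* was listed at 0 in all 6 libraries, and *CD14*, *LYZ* and *HLA-DRA* had at most 19 reads in any library. By limma, *PTPRC* was lower in the siPrp19 columns, with a log2 fold change of -0.63 (adjusted p = 0.0202). The summed level of the neuroblast markers was 299.5 to 315.6 FPKM in the NC columns and 234.8 to 246 FPKM in the siPrp19 columns. That of the leukocyte markers, almost all of it *PTPRC*, was 25.5 to 31.1 FPKM and 17.3 to 21.1 FPKM. The part of either in the results below was not tested.

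All 43 genes had a value above 0 in every library. The mean over the 6 libraries ranged from 0.0400 FPKM for *OAS2* to 92.8 FPKM for *IFITM3*, with a median of 3.75 FPKM over the 43 genes. The levels were high for only a few members. There were 14 genes at 10 FPKM or more, 19 genes from 1 to 10 FPKM and 10 genes under 1 FPKM. *IFITM3*, which restricts entry of enveloped viruses, was followed by the RNA-editing enzyme *ADAR* at 55.8 FPKM and by *IFI6* at 34.7 FPKM. The next in order, *IFI44* at 21.6 FPKM, *IRF3* at 21.5 FPKM, *BST2* at 20.1 FPKM and *IFI35* at 19.5 FPKM, had overlapping ranges over the 6 libraries. Other interferon-stimulated genes were at the lower end, with *MX1* at 0.256 FPKM, *IFI27* at 0.214 FPKM, *XAF1* at 0.104 FPKM and *OAS2* at 0.0400 FPKM. *OAS2* had 4 or 5 reads per library, and *IFITM1* had 1 to 5 reads (0.0538 to 0.224 FPKM). The plot of levels by library shows that the spread between genes was far larger than that between libraries of a gene.

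**Figure D1:**
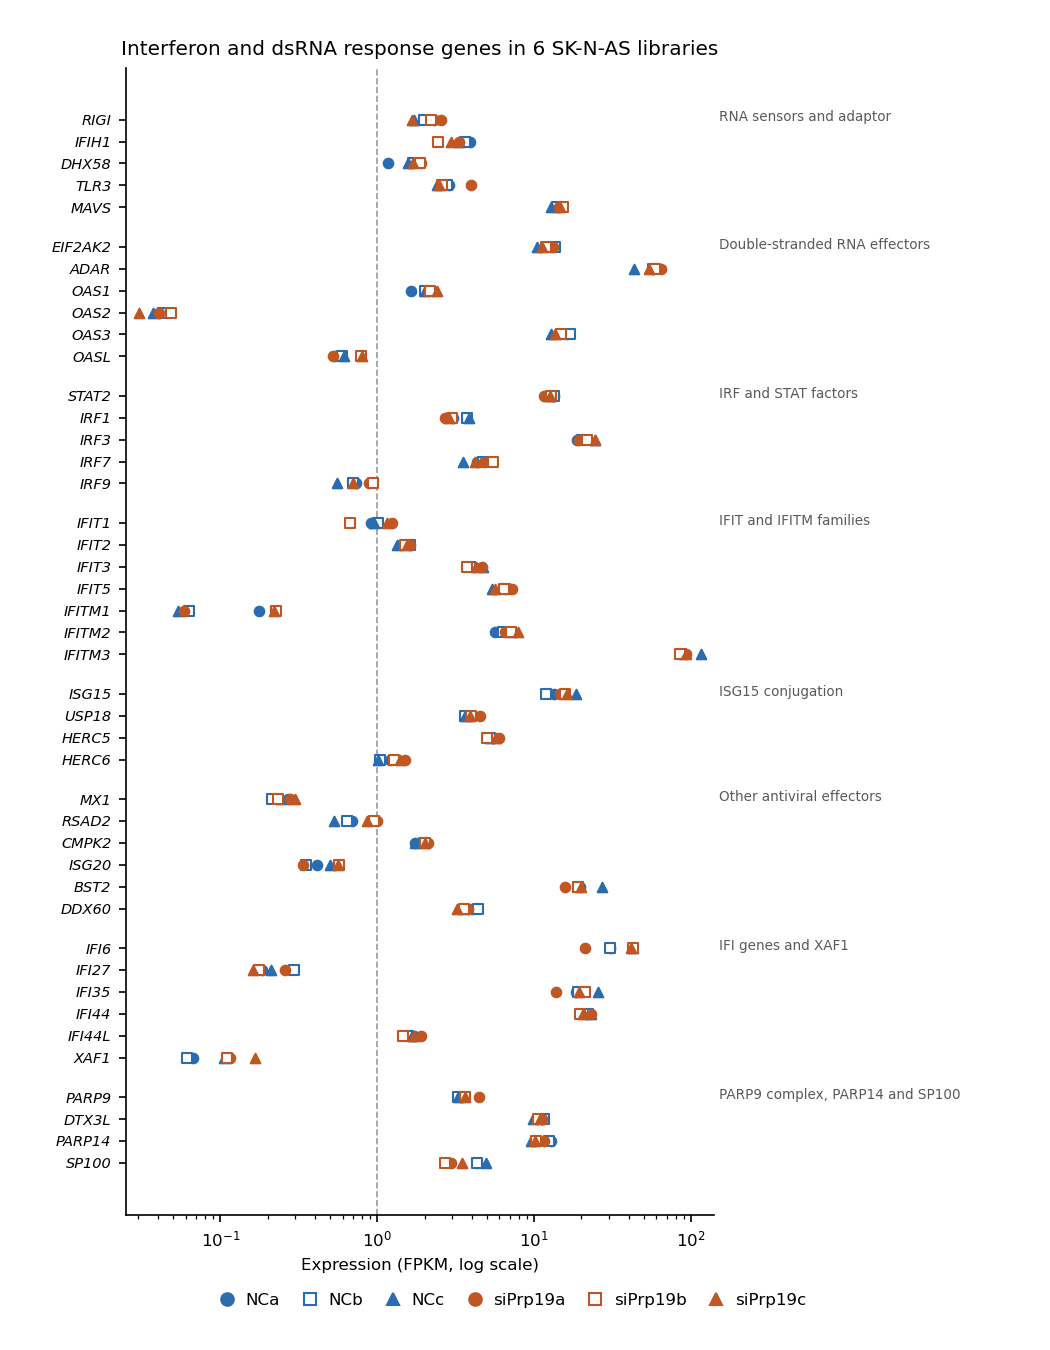
Level of each of the 43 genes in each library, in FPKM on a log axis, ordered by role; blue marks the NC columns, orange the siPrp19 columns, and open squares the 2 libraries whose label states the other group. The dashed line is the filter at 1 FPKM, and the genes run from *OAS2* at a mean of 0.0400 FPKM to *IFITM3* at 92.8 FPKM, with both colours mixed for most genes.

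One member passed the test. Among the 33 members with a mean of at least 1 FPKM, only *SP100* differed between the siPrp19 and the NC columns at an adjusted p of 0.05, and it was lower. Over all 13718 tested genes, 1089 passed (7.94%), of which 353 were higher and 736 lower. Among the members it was 1 of 33, and a difference from this background was not tested. In the 4 libraries whose label and column name agree, 0 members passed beside 2 of all genes (0.0146%), and as labelled 0 members passed beside 0 genes (0.0%). At an unadjusted p under 0.05, limma gave 2 members (6.06%) and 3240 genes (23.6%) by column name. It gave 1 member (3.03%) and 1685 genes (12.3%) in the 4 libraries, and 0 members and 191 genes (1.39%) as labelled. With voom, the form of limma made for counts, the reads recovered from the FPKM values covered all 43 genes. *SP100* was again the only member among 1430 of 23154 genes (6.18%), and 7 of the 43 members (16.3%) had an unadjusted p under 0.05, beside 4791 of all genes (20.7%). Since these are whole-culture RNA samples, fewer cells expressing a gene and less of its RNA per cell cannot be told apart.

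The members differed in both directions. By limma 19 were higher and 14 lower (57.6% higher, beside 46.0% of all tested genes). Their median log2 fold change was 0.05, from -0.46 to 0.20, beside a median of -0.02 over all tested genes. It was 0.07 in the 4 libraries whose label and column name agree (-0.02 over all genes) and 0.04 as labelled (-0.01 over all genes). By column name, this offset rested on 1 library, since without siPrp19a, the library with the high mitochondrial share, the median of the members was -0.02, as was that of all genes. The part of the mitochondrial share in this offset was not tested. The recovered reads put the median of all genes at 0.09 and that of the members at 0.15. On that scale 32 members were higher and 11 lower (74.4% higher, beside 60.8% of all genes). The groups did not overlap for 6 higher and 2 lower members of the 33 tested, where 31.3% of all tested genes had groups that did not overlap.

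The read-based intervals give a range for the difference of each member, with every library taken as independent. For 39 of the 43 genes, the 95% interval of the fold change by voom lay within a 2-fold change in either direction, and for 28 genes it lay within 1.5-fold. These counts were 36 and 16 in the 4 libraries whose label and column name agree. The 4 genes with a wider interval were *RSAD2*, *XAF1*, *IFITM1* and *OAS2*, all under 1 FPKM. *PRPF19* itself had an interval from 0.20 to 0.27 of the NC level. The plot of intervals shows the members around 0 and the siRNA target apart from them.

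**Figure D2:**
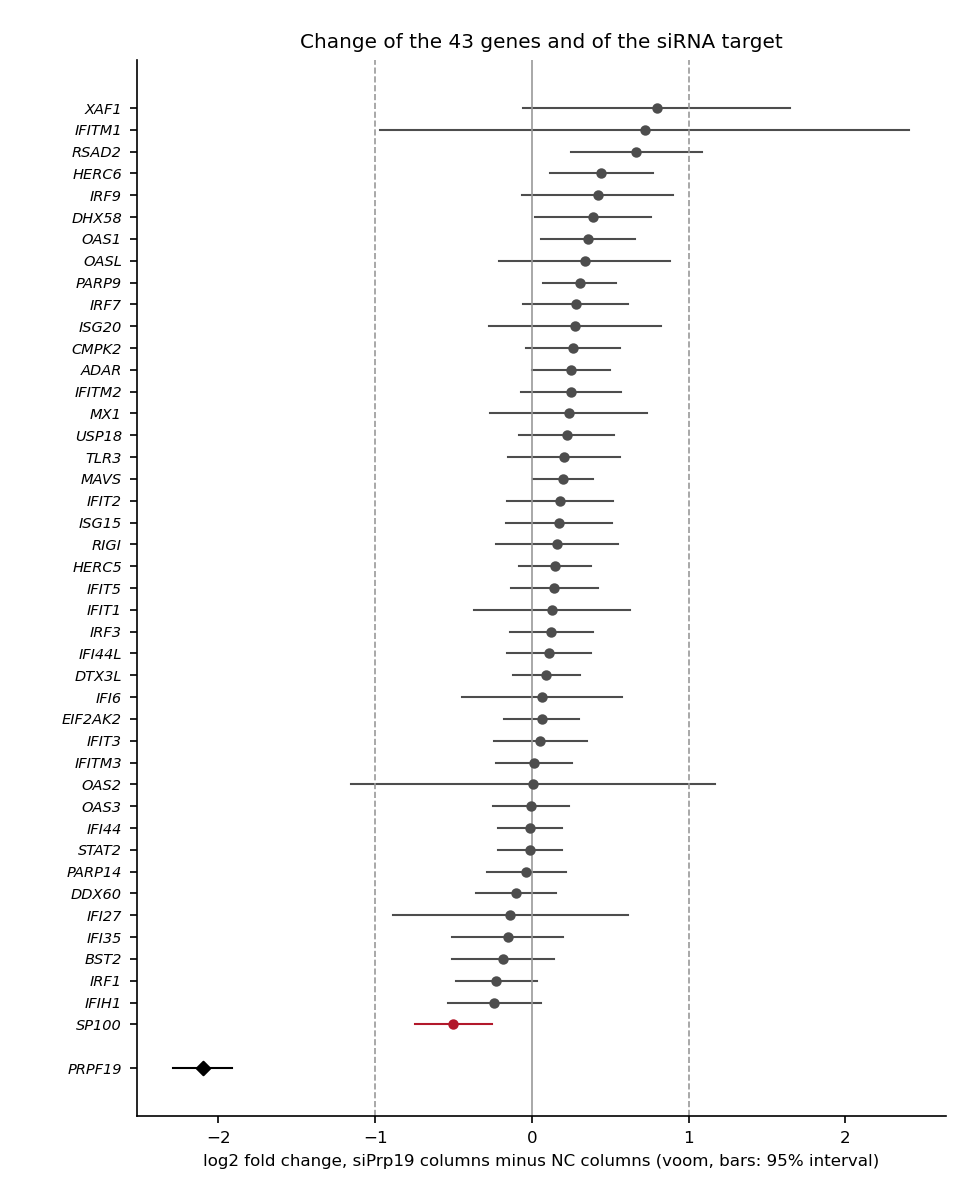
The log2 fold change of each of the 43 genes, siPrp19 columns minus NC columns, by voom on the recovered reads, with bars for the 95% interval, and *PRPF19* at the bottom as the target of the siRNA. Dashed lines mark a 2-fold change; *SP100*, in red, is the only member past an adjusted p of 0.05, and 39 of the 43 intervals stay between the dashed lines.

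No RNA sensor passed the test. *RIGI* encodes RIG-I, which recognises RNA with a triphosphate end, and was at 2.31, 1.98 and 1.71 FPKM in NCa, NCb and NCc and at 2.56, 2.21 and 1.67 FPKM in siPrp19a, siPrp19b and siPrp19c. *IFIH1*, which encodes MDA5, a sensor of long double-stranded RNA, was at 3.87, 3.60 and 3.30 FPKM in the NC columns and at 3.32, 2.42 and 2.94 FPKM in the siPrp19 columns. The groups overlapped for both, with log2 fold changes of 0.07 ± 0.14 (SE; adjusted p = 0.816 by limma) for *RIGI* and -0.24 ± 0.11 (adjusted p = 0.231 by limma) for *IFIH1*. *DHX58*, which encodes LGP2, a relative of both without signalling domains, was at 1.17, 1.69 and 1.56 FPKM in the NC columns and at 1.89, 1.86 and 1.70 FPKM in the siPrp19 columns. Its siPrp19 values all lay just above the highest NC value, and the difference of 0.19 ± 0.11 did not pass (adjusted p = 0.362 by limma).

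*TLR3* was at 2.85, 2.76 and 2.40 FPKM in the NC columns and at 3.94, 2.58 and 2.46 FPKM in the siPrp19 columns, with siPrp19a alone above the others (log2 fold change 0.11 ± 0.15, adjusted p = 0.724 by limma). *MAVS*, the adaptor of RIG-I and MDA5, was at 14.0, 14.0 and 12.8 FPKM in the NC columns and at 14.3, 15.3 and 14.7 FPKM in the siPrp19 columns. The groups of *MAVS* did not overlap, but the difference was small, at 1.00- to 1.31-fold by the voom interval, and did not pass (0.11 ± 0.07, adjusted p = 0.367 by limma). Of the 5 sensor and adaptor genes, 4 were higher and 1 was lower, with a median of 0.11.

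The effectors that bind double-stranded RNA directly did not pass either. *EIF2AK2* encodes PKR, a kinase that halts translation on binding double-stranded RNA, and was at 12.8, 13.5 and 10.4 FPKM in the NC columns and at 13.1, 11.8 and 11.3 FPKM in the siPrp19 columns. The values were interleaved, and the voom interval of 0.88- to 1.23-fold was one of the narrow ones among the members. Its log2 fold change of -0.01 ± 0.11 (adjusted p = 0.951 by limma) turned to 0.06 by voom, so no direction could be given. *ADAR*, which converts adenosine to inosine in double-stranded RNA, was at 57.5, 56.9 and 43.5 FPKM in the NC columns and at 64.1, 58.9 and 53.9 FPKM in the siPrp19 columns. NCc was the lowest of the 6 libraries for both genes, and *ADAR* had a log2 fold change of 0.17 ± 0.13 (adjusted p = 0.477 by limma).

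The OAS enzymes make oligoadenylates that activate the ribonuclease RNase L, and *OAS1*, *OAS3* and *OAS2* lie next to each other on chromosome 12, between positions 112906777 and 113011723 (GRCh38). Their levels differed widely within that cluster, at a mean of 2.09 FPKM for *OAS1*, 14.8 FPKM for *OAS3* and 0.0400 FPKM for *OAS2*. *OAS1* was at 1.65, 2.01 and 2.01 FPKM in the NC columns and at 2.27, 2.17 and 2.42 FPKM in the siPrp19 columns. All 3 siPrp19 values were above the NC values, and the difference of 0.19 ± 0.09 did not pass (adjusted p = 0.290 by limma). *OAS3* was at 12.9 to 16.8 FPKM over the 6 libraries and *OASL*, a relative without the enzyme activity, at 0.522 to 0.799 FPKM, both with overlapping groups.

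Among the transcription factors, none of the 4 tested members passed. *IRF1*, an activator induced by interferon gamma, was at 3.03, 3.74 and 3.84 FPKM in the NC columns and at 2.69, 3.00 and 2.85 FPKM in the siPrp19 columns. Its groups did not overlap, narrowly, and its log2 fold change was -0.23 ± 0.10 (adjusted p = 0.199 by limma). On the opposite strand, *IRF1-AS1* and another gene share 22.0% of the exonic bases of *IRF1*, and whether the counting used strand is not given in the sources used here. *IRF7*, the master regulator of interferon alpha genes, was at 4.35, 4.70 and 3.54 FPKM in the NC columns and at 4.82, 5.49 and 4.17 FPKM in the siPrp19 columns (0.17 ± 0.12, adjusted p = 0.460 by limma), with overlapping groups. *IRF3* was at 18.8 to 24.5 FPKM and *STAT2* at 11.5 to 13.4 FPKM over the 6 libraries. *IRF9*, the DNA-binding partner of STAT2, was low at 0.552 to 0.942 FPKM, and 48.4% of its exonic bases are shared with another gene on the same strand.

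The IFIT genes, whose products bind viral RNA ends, form a cluster on chromosome 10 between 89283694 and 89421001 (GRCh38). *IFIT1*, a standard readout of the interferon response, was at 0.917, 1.01 and 0.958 FPKM in the NC columns (67, 69 and 76 reads) and at 1.25, 0.670 and 1.16 FPKM in the siPrp19 columns (91, 51 and 112 reads). The highest and the lowest value were both in siPrp19 columns, and the voom interval of the fold change was 0.78 to 1.55. *IFIT2* was at 1.33 to 1.62 FPKM, *IFIT3* at 3.72 to 4.73 FPKM and *IFIT5* at 5.36 to 7.27 FPKM over the 6 libraries, each with overlapping groups. Within the cluster the order *IFIT5*, *IFIT3*, *IFIT2* held in each of the 6 libraries.

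The IFITM genes encode membrane proteins that block virus entry and lie together on chromosome 11. *IFITM3* was at 84.9, 85.8 and 115 FPKM in the NC columns and at 92.6, 85.6 and 93.0 FPKM in the siPrp19 columns, and only NCc stood above the rest. *IFITM2* was at 5.61, 6.33 and 7.23 FPKM in the NC columns and at 6.48, 7.15 and 7.87 FPKM in the siPrp19 columns (0.15 ± 0.11, adjusted p = 0.455 by limma), with overlapping groups. Exons of *IFITM1* and *IFITM2* overlap on the same strand (32.5% and 22.7% of their bases), so the division of reads between these genes is uncertain. The family members are related, and how alike their sequences are was not examined here.

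ISG15 is a ubiquitin-like protein that is attached to other proteins by the ligase HERC5 and removed by the protease USP18. *ISG15* itself was at 13.4, 11.9 and 18.6 FPKM in the NC columns and at 14.5, 15.7 and 16.1 FPKM in the siPrp19 columns. The NC columns held both the lowest and the highest value, and the log2 fold change was 0.10 ± 0.15 (adjusted p = 0.749 by limma). It was -0.04 ± 0.18 in the 4 libraries whose label and column name agree, so no direction could be given. *USP18* was at 3.95, 3.60 and 3.60 FPKM in the NC columns and at 4.52, 3.93 and 3.91 FPKM in the siPrp19 columns (0.12 ± 0.08, adjusted p = 0.434 by limma).

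*HERC5* and its relative *HERC6* are neighbours on chromosome 4, between 88378739 and 88506163 (GRCh38). *HERC6* was at 1.21, 1.04 and 1.00 FPKM in the NC columns and at 1.5, 1.29 and 1.40 FPKM in the siPrp19 columns, and all siPrp19 values were above the NC values. The difference of 0.20 ± 0.10 was the largest positive difference among the tested members on the log2(FPKM + 1) scale, and it did not pass (adjusted p = 0.305 by limma and 0.116 by voom). *HERC5* was at 5.02 to 6.0 FPKM over the 6 libraries, with overlapping groups.

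Of the other antiviral effectors, 3 of 6 were above the filter. *BST2* encodes tetherin, which holds budding virions on the cell surface, and was at 19.6, 19.1 and 27.2 FPKM in the NC columns and at 15.7, 19.0 and 19.9 FPKM in the siPrp19 columns. NCc was far above the other 5 libraries and the groups overlapped (-0.25 ± 0.15, adjusted p = 0.373 by limma). *DDX60*, a helicase induced by viruses, was at 4.03, 4.36 and 3.56 FPKM in the NC columns and at 3.8, 3.56 and 3.20 FPKM in the siPrp19 columns (-0.14 ± 0.09, adjusted p = 0.420 by limma). *CMPK2*, a mitochondrial nucleotide kinase, was at 1.73, 1.97 and 1.73 FPKM in the NC columns and at 2.12, 2.03 and 2.01 FPKM in the siPrp19 columns (0.12 ± 0.09, adjusted p = 0.456 by limma). Its siPrp19 values lay above all NC values by a narrow margin.

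*RSAD2* encodes viperin, which makes a chain-terminating nucleotide, and overlaps *CMPK2* at its start on the opposite strand of chromosome 2 (6865806 to 6898239, GRCh38). It was under the filter, and it is described here because its values were seen to separate. *RSAD2* was at 0.692, 0.645 and 0.529 FPKM in the NC columns (53, 46 and 44 reads) and at 0.995, 0.953 and 0.857 FPKM in the siPrp19 columns (76, 76 and 87 reads). All siPrp19 values were above all NC values, at a mean 50.2% higher. Such separation was common. Over the 43 members the groups did not overlap for 8 higher and 2 lower. Of the 23154 genes tested by voom, it was 2901 higher and 3001 lower. By voom the log2 fold change was 0.67, with a 95% interval from 0.25 to 1.09, and it did not pass (adjusted p = 0.0640). *MX1*, a GTPase that traps viral capsids and a standard marker of interferon exposure, was at 0.271, 0.212 and 0.243 FPKM in the NC columns and at 0.279, 0.232 and 0.298 FPKM in the siPrp19 columns (27 to 54 reads). Its groups overlapped, and its voom interval was 0.83- to 1.67-fold. *ISG20*, an exonuclease, was at 0.335 to 0.568 FPKM over the 6 libraries.

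None of the IFI genes among the members passed. *IFI6*, a short interferon-inducible gene whose product resides in the endoplasmic reticulum and mitochondria, was at 30.3, 30.3 and 42.3 FPKM in the NC columns and at 21.2, 42.7 and 41.5 FPKM in the siPrp19 columns. The lowest value, in siPrp19a, was far below the values in siPrp19b and siPrp19c. *IFI35*, a regulator of innate signalling, was at 18.6, 19.0 and 25.5 FPKM in the NC columns and at 13.8, 20.9 and 19.2 FPKM in the siPrp19 columns (-0.22 ± 0.18, adjusted p = 0.510 by limma). Its lowest value was again in siPrp19a and its highest in NCc. *IFI44* was at 19.6 to 23.1 FPKM and its neighbour *IFI44L* at 1.45 to 1.90 FPKM over the 6 libraries, with overlapping groups. *IFI27* was at 0.161 to 0.294 FPKM (12 to 18 reads). *XAF1* was at 0.0615 to 0.166 FPKM (6 to 23 reads), with a voom interval of 0.96- to 3.14-fold, which is too wide to bound its change.

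PARP9 and DTX3L act as a complex that supports interferon signalling, and their genes start within a short distance of each other on opposite strands of chromosome 3, with *PARP14* nearby. *PARP9* was at 3.39, 3.27 and 3.27 FPKM in the NC columns and at 4.47, 3.60 and 3.64 FPKM in the siPrp19 columns. The groups did not overlap, siPrp19a was the highest, and the difference of 0.18 ± 0.09 did not pass (adjusted p = 0.281 by limma and 0.122 by voom). *DTX3L* was at 9.83 to 11.5 FPKM and *PARP14* at 9.60 to 12.7 FPKM over the 6 libraries, both with overlapping groups.

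*SP100* (ENSG00000067066) codes for protein, lies on chromosome 2 between 230415942 and 230544090 (GRCh38, plus strand) and encodes a component of PML nuclear bodies, which restrict DNA viruses. It was at 4.33, 4.33 and 4.94 FPKM in NCa, NCb and NCc (865, 805 and 1073 reads) and at 2.96, 2.70 and 3.46 FPKM in siPrp19a, siPrp19b and siPrp19c (589, 563 and 918 reads). All 3 siPrp19 values were below all NC values. The mean was 4.53 ± 0.356 FPKM (SD, n = 3) in the NC columns and 3.04 ± 0.388 FPKM (SD, n = 3) in the siPrp19 columns, so that the mean fell by 32.9%. *SP100* fell by 0.46 ± 0.10 (SE) in log2 units (adjusted p = 0.0350 by limma). The read-based estimate by voom was -0.50, with a 95% interval of 0.60 to 0.84 of the NC level and an adjusted p of 0.0216.

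The call depended on the libraries and the setting. In the 4 libraries whose label and column name agree, the log2 fold change was -0.42 ± 0.14 and did not pass (adjusted p = 0.317 by limma). It was -0.11 ± 0.20 as labelled (adjusted p = 1.00 by limma), a grouping that the level of *PRPF19* went against. By column name, each library left out in turn ended the call, with an adjusted p by limma of 0.106 without NCa, 0.0982 without NCb, 0.0618 without NCc, 0.0725 without siPrp19a, 0.135 without siPrp19b and 0.0617 without siPrp19c. With all libraries, the call held in 6 of the 9 alternatives. It was lost without the filter on low values (adjusted p = 0.101 by limma) and with every library rescaled to the same FPKM sum (adjusted p = 0.0630 by limma). The correction for exon length and GC content, given below, also ended it. *PML*, the organising protein of the same nuclear bodies, was at 5.59, 5.33 and 5.07 FPKM in the NC columns and at 5.66, 5.49 and 5.16 FPKM in the siPrp19 columns and did not pass.

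The rest of the pathway was covered by 84 further genes in 5 lists, of which 54 were above the filter. By limma 7 passed, 1 higher and 6 lower. The background was 7.94% of all tested genes. Their median log2 fold change was -0.06, with 19 higher and 35 lower, beside -0.02 over all genes. These directions are on the FPKM scale, and the median over all genes tested by voom was 0.09. In the 4 libraries whose label and column name agree, and as labelled, 0 of the 54 passed by limma, and by voom *CXCL8* passed in the 4 libraries (adjusted p = 0.00823). The plot of the genes that passed shows the values of each library.

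**Figure D3:**
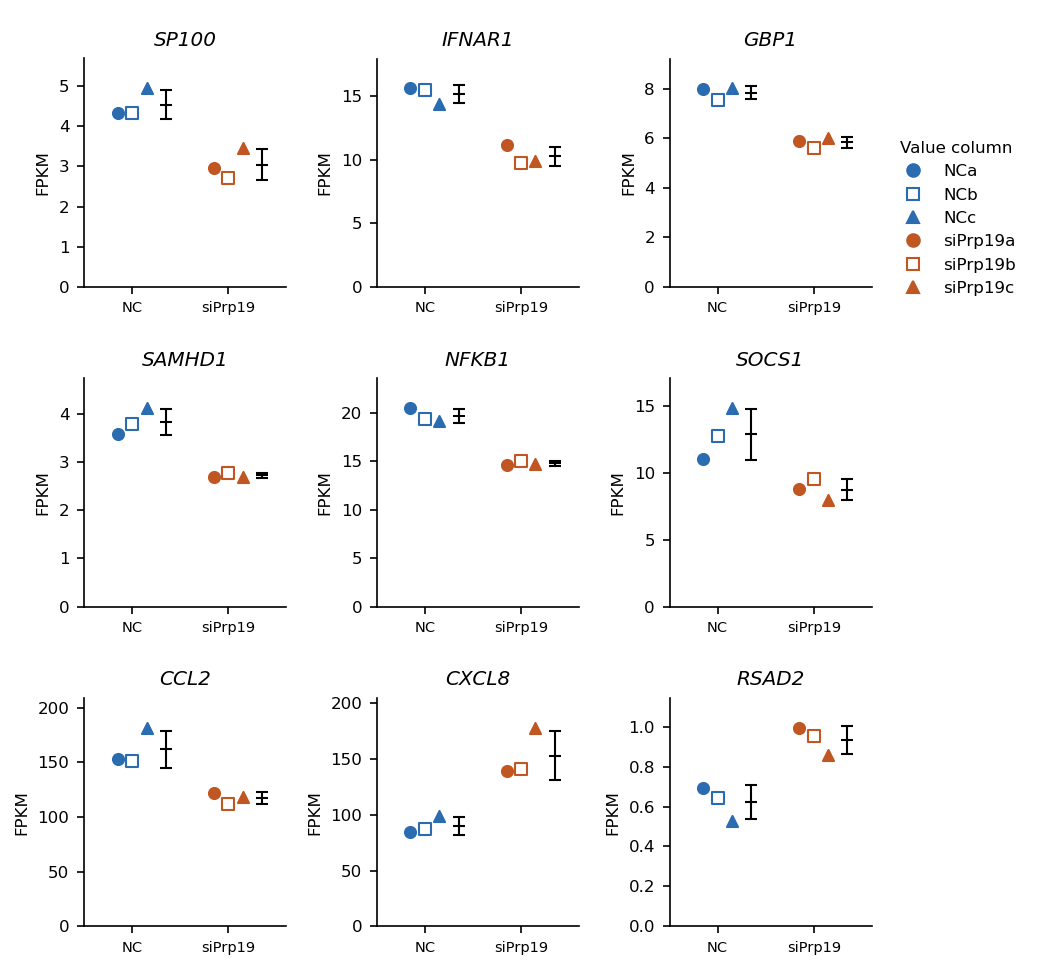
Level in FPKM in each library of *SP100*, of the 7 other pathway genes that passed by column name and of *RSAD2*, which did not; blue marks the NC columns, orange the siPrp19 columns, open squares the 2 libraries whose label states the other group, and bars the mean ± SD of 3 columns. In each panel the groups by column name do not overlap, and *CXCL8* and *RSAD2* are the panels with higher siPrp19 values.

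Interferons themselves were at the floor. Of 10 interferon genes, *IFNA2*, *IFNE*, *IFNW1*, *IFNL1*, *IFNL2*, *IFNL3* and *IFNG* had 0 reads in all 6 libraries, where a count of 0 allows up to 3 reads per library. *IFNA1* had 2 reads in siPrp19c, *IFNB1*, the first interferon made after sensing of RNA in most cells, had 1 read in siPrp19b, and *IFNK* had 1 read in siPrp19a. All these reads were in siPrp19 columns, and none exceeded the floor of 3 reads. *CXCL10*, a chemokine strongly induced by interferon, had 7, 8 and 10 reads in the NC columns and 7, 1 and 1 reads in the siPrp19 columns.

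The receptor chain *IFNAR1*, which binds interferons alpha and beta, was lower. It was at 15.6, 15.5 and 14.3 FPKM in the NC columns and at 11.1, 9.76 and 9.88 FPKM in the siPrp19 columns, and fell by 0.52 ± 0.08 on the log2 scale (adjusted p = 0.0111 by limma). The groups were well apart, and in the 4 libraries whose label and column name agree the value was -0.47 ± 0.13 (adjusted p = 0.236 by limma). Its partner *IFNAR2* was at 0.329 to 0.630 FPKM, under the filter. The receptor chains for interferon gamma, *IFNGR1* (-0.09 ± 0.08, adjusted p = 0.553 by limma) and *IFNGR2* (-0.18 ± 0.09, adjusted p = 0.284 by limma), had overlapping groups.

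Of 25 signal relays and brakes, 21 were tested, with 10 higher and 11 lower, and 2 passed, both lower. *NFKB1*, a subunit of NF-kB, was at 20.5, 19.4 and 19.2 FPKM in the NC columns and at 14.5, 15.0 and 14.7 FPKM in the siPrp19 columns (log2 fold change -0.39 ± 0.06, adjusted p = 0.0141 by limma). *SOCS1*, a feedback inhibitor of JAK kinases, was at 11.0, 12.8 and 14.9 FPKM in the NC columns and at 8.78, 9.51 and 7.98 FPKM in the siPrp19 columns (-0.50 ± 0.11, adjusted p = 0.0446 by limma). Both were lower in each siPrp19 column than in any NC column, but the call of *SOCS1* held in only 3 of the 9 alternatives with all libraries, and was lost without the filter, for example (adjusted p = 0.123 by limma). The next in size did not pass, with *SOCS3* at -0.31 ± 0.09 (adjusted p = 0.0884 by limma), *RELA* at -0.26 ± 0.07 (adjusted p = 0.0585 by limma) and *NFKBIA* at -0.20 ± 0.09 (adjusted p = 0.262 by limma).

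Of 27 other interferon-stimulated genes, 21 were tested, with 8 higher and 13 lower, and 2 passed, both lower. *GBP1*, a GTPase that attacks vacuoles of pathogens, was at 7.97, 7.53 and 8.01 FPKM in the NC columns and at 5.90, 5.60 and 5.99 FPKM in the siPrp19 columns (log2 fold change -0.37 ± 0.06, adjusted p = 0.0188 by limma, and adjusted p = 0.0502 by voom). *SAMHD1*, which depletes nucleotides, was at 3.59, 3.79 and 4.13 FPKM in the NC columns and at 2.70, 2.79 and 2.69 FPKM in the siPrp19 columns (-0.37 ± 0.08, adjusted p = 0.0309 by limma). The groups did not overlap for either gene, but the call of *SAMHD1* held in only 4 of the 9 alternatives with all libraries and was lost, for example, without the filter (adjusted p = 0.0807 by limma). Of the others, *SAMD9* had -0.42 ± 0.15 (adjusted p = 0.146 by limma), *STING1*, the adaptor of DNA sensing, 0.31 ± 0.12 (adjusted p = 0.161 by limma) and *PARP10* -0.20 ± 0.10 (adjusted p = 0.287 by limma).

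None of the 7 tested double-stranded RNA-binding partners passed, and all 7 were lower on the FPKM scale, with *ILF2* at -0.13 ± 0.12 (adjusted p = 0.576 by limma) and *STAU1* at -0.12 ± 0.07 (adjusted p = 0.353 by limma). Of 8 cytokines, 2 were above the filter and both passed, in opposite directions. *CXCL8*, a neutrophil chemokine driven by NF-kB, was at 84.3, 87.1 and 99.1 FPKM in the NC columns and at 139, 141 and 178 FPKM in the siPrp19 columns, and rose by 0.75 ± 0.12 (adjusted p = 0.0158 by limma). *CCL2*, a monocyte chemokine, was at 153, 151 and 182 FPKM in the NC columns and at 122, 112 and 118 FPKM in the siPrp19 columns (-0.46 ± 0.10, adjusted p = 0.0373 by limma). Without NCa, NCb, siPrp19b or siPrp19c, none of the 7 genes that passed kept its call (adjusted p from 0.0533 to 0.156 by limma), the loss of *SOCS1* extended to NCc (0.0591) and siPrp19a (0.0874), and *SAMHD1* (0.0563) and *CCL2* (0.0532) were also lost without siPrp19a.

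The members also varied within the groups, and part of this variation went with gene length. NCc had the lowest value of the 6 libraries for 12 of the 33 tested members and the highest for 7, and siPrp19a the highest for 13. The difference of log2(FPKM + 1) between NCc and the mean of NCa and NCb had a median of 0.33 over the 10 members with merged exons shorter than 3000 bases and of -0.11 over the 23 longer members. *ISG15*, *IFI6*, *BST2*, *IFITM3* and *IFI35* were the short genes that stood highest in NCc, by 0.42 to 0.53, and *ADAR*, at -0.39, the long gene that stood lowest. Across the 33 members, this difference correlated with log2 exon length at r = -0.715 (Spearman's rho -0.601), and across all tested genes at r = -0.148 (rho -0.399). In siPrp19a against the mean of siPrp19b and siPrp19c, the direction was opposite, with r = 0.516 (rho 0.339) across the members and r = 0.162 (rho 0.230) across all genes. The median there was -0.06 over the 10 shorter members, of which 5 were higher. It was 0.09 over the 23 longer members, of which 6 were lower. Genes of one library share its depth and preparation, so these correlations are descriptions and carry no p. The part of library preparation in the differences between groups was not tested, and *SP100* had, once exon length and GC content were regressed out of each library, -0.46 (adjusted p = 0.0824 by limma).

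**Figure D4:**
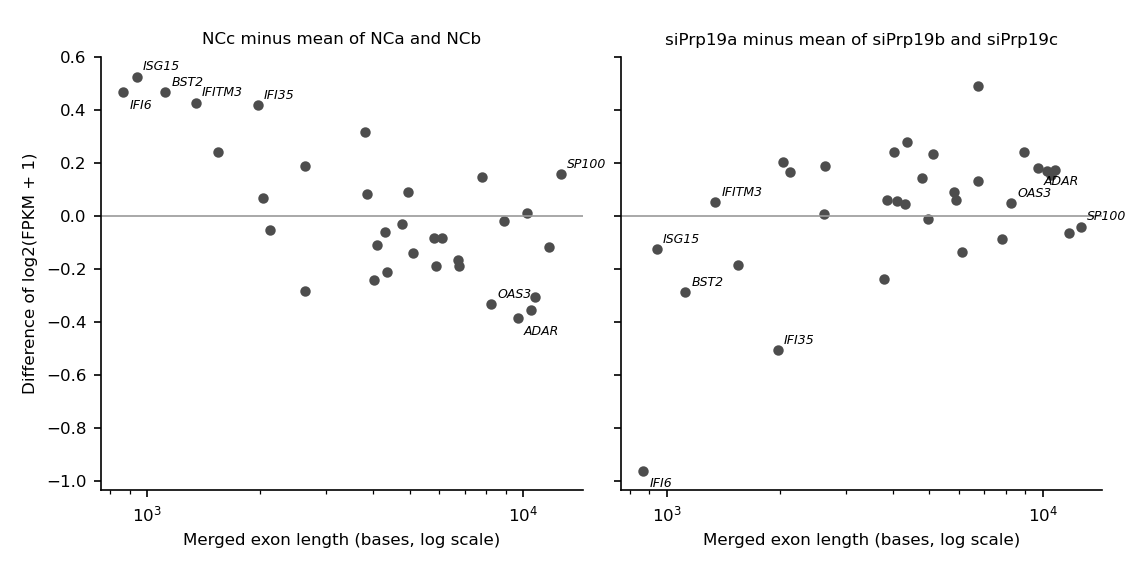
Difference of log2(FPKM + 1) between NCc and the mean of NCa and NCb (left) and between siPrp19a and the mean of siPrp19b and siPrp19c (right) against merged exon length in bases on a log axis, 1 point per tested member (33 genes). Short members such as *ISG15* lie above 0 in NCc and long ones such as *ADAR* below it, and *IFI6* is the lowest point in siPrp19a at -0.96.

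The members were also grouped by whether the window held the ISRE letters, and the difference between the classes was not tested. Among the 23 genes with the element, 17 were tested, 0 passed, and the median log2 fold change was -0.01, from -0.25 (*BST2*) to 0.18 (*PARP9*), with 7 higher and 10 lower. Among the 12 genes whose window lacked it, 10 were tested, *SP100* passed, and the median was 0.09, with 6 higher and 4 lower. The 8 genes without a matched window had 6 tested members, of which 0 passed, all 6 higher, at a median of 0.13. On the read-based scale the medians were 0.09, 0.22 and 0.23, where the median of all genes was 0.09. *RSAD2* and *IFITM1* were the members with the element that lay furthest above 0, both under 1 FPKM, as the plot by promoter class shows.

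**Figure D5:**
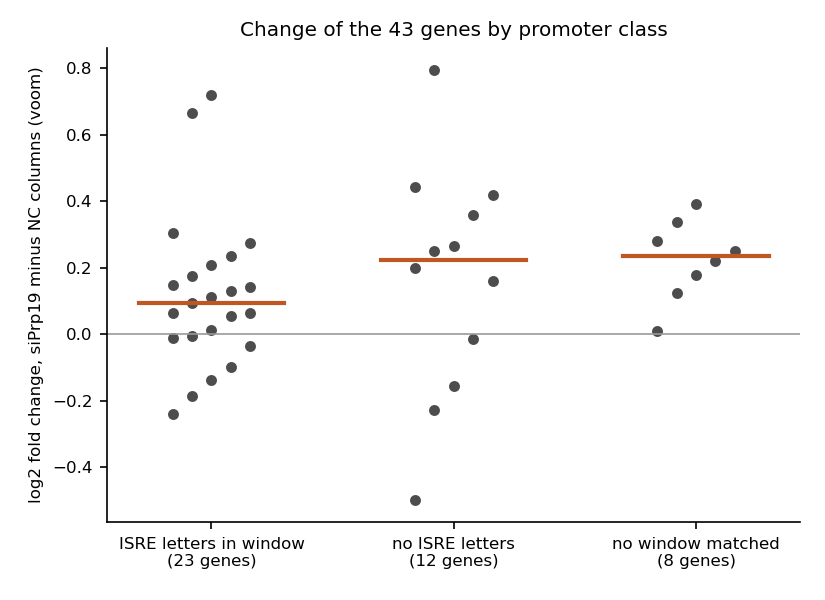
The log2 fold change by voom, siPrp19 columns minus NC columns, of the 43 genes in 3 classes of promoter window (1 point per gene, orange lines the medians). The medians are 0.09 with the ISRE letters, 0.22 without them and 0.23 where no window was matched, and the classes overlap over most of their range.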

How the data were processed

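RNA-seq had been performed on 6 libraries of SK-N-AS cells, from TRIzol-extracted RNA and the NEBNext Ultra RNA kit. FPKM values of 58735 Ensembl genes per library were deposited by the authors. The submitters' processing notes name HISAT2 2.0.5, featureCounts 1.5.0-p3 and hg38, and the study's methods name DESeq2 for testing, which was not used here. The deposited FPKM are not counts, and the reads recovered from them were tested with voom. Identifiers were matched to GENCODE 29 (all 58735) and to current symbols (58207). FPKM times merged exon length gave whole reads for 100% of values (within 0.1 of a read), at 0.951 to 1.04 times the library size that the FPKM scale implies. This ratio was 1.01, 1.01 and 1.04 in NCa, NCb and NCc, and 0.989, 0.961 and 0.951 in siPrp19a, siPrp19b and siPrp19c. It thus differed by group, and its part in the directions on the FPKM scale was not tested.

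Values were transformed to log2(FPKM + 1), which understates changes of weakly expressed genes, after a filter at a mean of 1 FPKM. The fits used limma 3.58.1 (R 4.3.3), allowing the variance to follow the mean, and p-values were adjusted by Benjamini-Hochberg over every tested gene, with a threshold of 0.05. Intervals for fold changes came from voom on recovered reads (at least 10 reads in total), at a confidence level of 95%. A floor of 3 reads was used for counts of 0, which covers counting error only. The procedure was tested on simulated data, where limma on log2(FPKM + 1) made more false calls than voom. The limma intervals also held the true change less often, so that intervals are given from voom. The simulated libraries were independent, with a single dispersion and a single size of change. They cannot show whether the intervals hold in the real libraries, where some pairs were close to counting noise. Python 3.11.15 with pandas 2.3.3 was used for tables, and matplotlib 3.10.9 for plots.

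Groups were taken from the name of the value column, which is the description of a sample of that group, and separately from the sample labels. In 4 of the 6 files the column name describes a different sample from that of the file's record, and in 2 of these the group differs. Libraries were compared by a chi-square per degree of freedom, which was 1.75 for NCa and NCb, 2.85 for siPrp19b and siPrp19c, and 21.5 to 56.6 for the other pairs. The first 2 pairs were thus close to counting noise (a value of 1) but above it, and each library was kept as its own sample.

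Values in every library are given for members past the threshold, for the 15 tested members with the largest difference, for RIGI, IFIH1, TLR3, DHX58, MAVS, EIF2AK2 and ADAR, and for IFIT1, ISG15, MX1 and OAS1, and other members by range. For other pathway lists, genes past the threshold and up to 3 more per list are given, except that some genes of these lists and of the marker lists are not reported here. PML, IFNAR2, CXCL10, the interferon genes and RSAD2 were added after their values were seen. The members and lists were chosen with earlier results of these data known. Alternatives were a pseudocount of 0.1, no filter, quantile normalization, an equal FPKM sum, no trend, voom, a replicate block and leaving out each library. A correction for GC content and exon length with splines of 4 degrees of freedom, alone and with the block, was added after seeing the data. Promoter windows came from the RefSeq table for GRCh38.p14.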

Additional observations from a re-analysis of the deposited data

How the results depend on the processing

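Of 1333 recomputed values, 1184 stayed on the same side of 0 and of the threshold, or moved by less than the spread. Of the rest, 64 lost a call, 1 gained a call, 51 changed sign, and 33 were counts or medians that moved further. By column name, 512 genes passed without the filter (of 34468 tested), 679 with an equal FPKM sum and 1797 after the GC and length correction, and 253 to 1354 with each library left out. The number was 264 without NCa, 335 without NCb, 270 without siPrp19b and 253 without siPrp19c, the libraries of the 2 most similar pairs. Of the 1089 calls, 353 were higher and 736 lower. Quantile normalization gave 1087 calls, 501 higher and 586 lower, and voom 812 higher and 618 lower. The number of members that passed was 0 without the filter, with an equal FPKM sum, after the GC and length correction and in all 6 leave-one-out fits. The median of the members was 0.0808 with an equal FPKM sum and 0.149 by voom, and -0.0221 to 0.0557 with libraries left out. The difference between the medians of the members and of all genes stayed between 0.0516 and 0.0701 in the settings with all 6 libraries.

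In the 4 libraries whose label and column name agree, 0 genes passed without the filter, 350 by voom and 0 to 70 with a library left out, where a lone library is assumed to vary like the others. The median of the members was 0.109 with quantile normalization, 0.182 by voom and 0.0184 to 0.127 with a library left out. PRPF19 stayed at -2.15 without the filter but lost its call (adjusted p = 0.286 by limma), and ranged from -2.23 to -2.07 with a library left out, where the call was also lost without NCa (adjusted p = 0.113 by limma) and without NCc (adjusted p = 0.242 by limma). As labelled, a grouping that the level of PRPF19 went against, 0 genes passed in every setting. The median was then 0.0919 by voom and 0.0103 to 0.0851 with a library left out.

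The letters of the column names do not show paired libraries, with correlations of deviations of 0.134, -0.0490 and 0.204 for a, b and c. With the replicate block, 928 genes and 1 member, SP100 (adjusted p = 0.0335 by limma), passed by column name. In the 4 libraries, 0 genes passed with the block, PRPF19 being at -2.15 (adjusted p = 0.0894 by limma), or at -2.13 with the GC and length correction as well (adjusted p = 0.0882 by limma), where again 0 genes passed.

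Small differences changed sign, and the cause was not tested. By column name, EIF2AK2 was at 0.0460 with quantile normalization, 0.0242 with an equal FPKM sum, 0.0623 by voom and 0.00955 after the GC and length correction, with or without the block. ISG15 in the 4 libraries was at 0.0412, 0.00896 and 0.0384 in the first 3 of these. As labelled, DDX60 was at -0.00314 with quantile normalization and -0.0281 after the correction, MAVS at -0.0210 after the correction, and RIGI at 0.00495 with an equal sum and 0.0118 by voom. With a library left out, the ranges by column name were -0.117 to 0.0529 for EIF2AK2, -0.0283 to 0.274 for ISG15, -0.0279 to 0.179 for RIGI and -0.0586 to 0.199 for TLR3. In the 4 libraries they were -0.0154 to 0.302 for IFITM2, -0.163 to 0.250 for RIGI, -0.0713 to 0.203 for EIF2AK2, -0.264 to 0.185 for ISG15, -0.0636 to 0.453 for TLR3 and -0.188 to 0.00279 for DDX60. As labelled they were -0.0586 to 0.10 for IFITM2, -0.119 to 0.0873 for RIGI, -0.301 to 0.0145 for IFNAR1, -0.0978 to 0.157 for IFIH1, -0.0695 to 0.106 for DDX60, -0.308 to 0.0337 for SP100, -0.179 to 0.0202 for IRF1, -0.00101 to 0.213 for ADAR, -0.0852 to 0.172 for IRF7, -0.0301 to 0.0907 for MAVS and -0.0208 to 0.111 for USP18. Depth limits the members under 1 FPKM, of which OAS2, IFITM1 and XAF1 had at most 23 reads in a library.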
